A study of Mus musculus with 4 samples.

Results

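Costimulatory and checkpoint receptors are surface proteins of lymphocytes that raise or lower the response to other signals, and 10 of their genes were examined in sorted CCR6+ innate lymphoid cells. The members were Icos, Cd28, Ctla4, Pdcd1, Btla, Lag3, Tigit, Havcr2, Cd96 and Cd226. They were taken by symbol, as the probe sets whose platform annotation names 1 of these genes alone, with the probe set of highest mean where a gene has several. All 10 were found, each on 1 probe set, among 19938 named genes. The 4 samples form 1 group, CCR6 ILC3 1 to 4, of naive C57BL/6 mice. The cells came from the mesenteric lymph node and were sorted as CD127+ CD90.2+ CCR6+ ST2- cells. Total RNA labelled with biotin was hybridised to 1 array per sample. No second cell type or condition was analysed, so the question is which receptor genes these cells carried above background and how steady their levels were between samples. The sources used here do not give the number, age or sex of the mice or whether samples were pooled, so spread between arrays may be partly technical.

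ICOS, CD28, CTLA-4, PD-1 and BTLA are related receptors of the immunoglobulin superfamily. ICOS and CD28 promote activation through phosphatidylinositol 3-kinase, while CTLA-4, PD-1 and BTLA dampen it, CTLA-4 by competing with CD28 for CD80 and CD86. LAG-3 binds MHC class II, and TIM-3, the product of Havcr2, binds galectin-9 among other ligands. TIGIT, CD96 and CD226 form a group that recognises nectins and nectin-like proteins such as the poliovirus receptor, in which CD226 activates and TIGIT inhibits. Most of this is known from T cells and natural killer (NK) cells. Group 3 innate lymphoid cells (ILC3) have no rearranged antigen receptor for such signals to modify.

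The receptors ranged from genes far above background, through genes at levels between, to genes near or within it. Cd96, Icos and Cd226 had mean log2 levels of 10.38 ± 0.10, 9.91 ± 0.44 and 9.36 ± 0.16 (SD, n = 4, as for all means below) and lay above every background gene. Btla, Cd28, Lag3 and Pdcd1 were called above background at means of 7.79 ± 0.87, 7.15 ± 0.32, 6.96 ± 0.06 and 6.45 ± 0.57. Ctla4 and Tigit, at 6.29 ± 0.61 and 5.98 ± 0.12, were not called. Havcr2, at 4.07 ± 0.08, lay below the median of the background genes, 4.25. In all, 7 of 10 members were called, against 46.2% of all named genes. The median of the members' mean levels was 7.06, against 6.16 for all named genes.

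The detection call set each gene's mean against 1237 genes for receptors of smell, pheromones, trace amines and bitter taste, most of them olfactory receptors (1027 genes). Its one-sided p counts the background genes at or above the gene and received a Benjamini-Hochberg adjustment over the 19938 named genes, with 0.05 as the threshold. It cannot fall below 0.000808 (0.0108 after adjustment), the value reached by Cd96, Icos and Cd226. Silent genes can still pass: of 14 measured genes of other organs, 5 were called, and the highest value among them was 7.42, that of the muscle gene Ckm on array 1. Of the members, 3 were above 7.42 on every array, again Cd96, Icos and Cd226, against 24.1% of all named genes. Levels of different probe sets are not compared as RNA amounts, because probes bind unequally, so the members are placed against background and not ranked against each other.

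**Figure D1:**
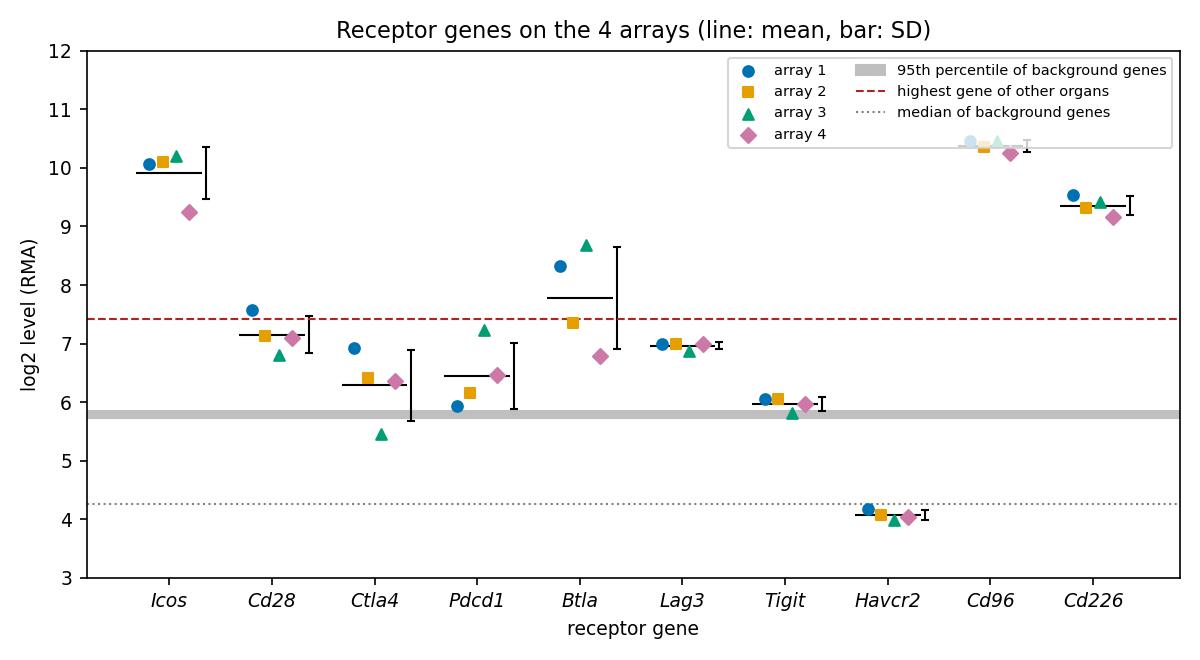
Log2 level (RMA) of each receptor gene on the 4 arrays, with symbols for arrays, a line at the mean and a bar for the SD. The grey band is the 95th percentile of background genes on the arrays (5.73 to 5.84), the dotted line the median of background genes and the dashed line the highest value among genes of other organs (7.42). Cd96, Icos and Cd226 lie above the dashed line on every array, Btla crosses it, and Havcr2 lies under the dotted line.

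Promoter sequence, from 250 bases before to 50 after the start of a gene, was held for 6 of the 10 members in the RefSeq table of build GRCm38.p6. The 3 shown are of receptors whose genes all lie on chromosome 16 and whose levels behaved differently: Cd96, far above background and steady, Btla, which varied most between arrays, and Tigit, near background. Capitals mark matches to GAGGAA (a core bound by Ets factors such as PU.1) or TATAAA (the core of many basal promoters), searched on both strands together with AGGTCA (a core bound by many nuclear receptors). These motifs were chosen after the values were seen.
Cd96 promoter, GRCm38.p6 chr16:46120199-46120498, minus strand: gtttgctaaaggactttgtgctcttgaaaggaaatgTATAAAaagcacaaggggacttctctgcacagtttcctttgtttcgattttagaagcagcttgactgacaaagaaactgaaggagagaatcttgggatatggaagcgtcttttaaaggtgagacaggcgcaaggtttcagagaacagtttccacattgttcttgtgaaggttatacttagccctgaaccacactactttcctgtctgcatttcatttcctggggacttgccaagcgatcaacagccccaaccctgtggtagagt
Btla promoter, GRCm38.p6 chr16:45224087-45224386, plus strand: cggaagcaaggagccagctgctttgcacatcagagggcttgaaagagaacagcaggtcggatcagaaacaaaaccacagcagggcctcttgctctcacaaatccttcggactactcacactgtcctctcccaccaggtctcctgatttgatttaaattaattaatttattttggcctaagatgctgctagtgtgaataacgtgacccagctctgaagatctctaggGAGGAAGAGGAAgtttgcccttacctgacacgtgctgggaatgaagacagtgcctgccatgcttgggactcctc
Tigit promoter, GRCm38.p6 chr16:43664135-43664434, minus strand: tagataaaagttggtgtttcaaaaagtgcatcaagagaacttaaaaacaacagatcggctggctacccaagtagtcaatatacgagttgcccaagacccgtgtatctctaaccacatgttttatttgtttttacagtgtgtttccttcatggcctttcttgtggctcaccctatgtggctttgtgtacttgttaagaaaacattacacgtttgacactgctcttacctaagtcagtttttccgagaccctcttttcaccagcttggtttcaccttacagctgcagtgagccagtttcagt
GAGGAA or its reverse complement occurred in 28.3% of the 32851 promoters of this length in the table, TATAAA in 13.6% and AGGTCA in 16.3%. The Btla window held 2 adjoining matches to GAGGAA, which do not overlap, beginning 24 and 18 bases before the start. The Cd96 window held 1 match to TATAAA, beginning 214 bases before the start. The Tigit window held 0 matches to the 3 motifs. A match describes letters and not a bound site.

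Both receptors of the CD28 family that activate were called, Icos above every background gene and Cd28 with some background genes above it. Icos, which enhances the survival and cytokine output of T cells and of other innate lymphoid cells, was at 10.07, 10.11, 10.20 and 9.25 on arrays 1 to 4. Array 4 stood 0.81 below the lowest of the other arrays, and the largest difference between arrays came to a fold of 1.93. Icos was called in each of the 4 sets that left out 1 array, with an adjusted p between 0.0084 and 0.0126. Cd28, the main costimulatory receptor of T cells, was at 7.57, 7.13, 6.80 and 7.10, with an adjusted p of 0.0221. It exceeded the highest gene of other organs on array 1 alone.

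The inhibitory members of the family were near background except Btla. Ctla4 was at 6.92, 6.41, 5.46 and 6.36 on arrays 1 to 4, with an adjusted p of 0.0523, and fell under the 95th percentile of background on array 3. It was called without array 3, at a mean of 6.56 and an adjusted p of 0.0433. Pdcd1, which encodes PD-1, was at 5.93, 6.15, 7.23 and 6.46, with an adjusted p of 0.0448. It was not called without array 3, at a mean of 6.18 and an adjusted p of 0.0617, so its call rested on that array. Array 3 thus held the lowest Ctla4 and the highest Pdcd1 value. Cd28 and Ctla4 ordered the arrays alike, from array 1 at the top through 2 and 4 to 3. Pdcd1 ordered them in the reverse way. Havcr2, which lay below the median of background, had the same order as Cd28 and Ctla4. So did Tigit, apart from a tie of arrays 1 and 2. Icos ordered the arrays from 3 through 2 and 1 to 4. The share of all genes with each order is not given here. In the genome Cd28, Ctla4 and Icos are consecutive protein-coding genes of chromosome 1 in the RefSeq gene table, with no other coding gene between them.

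Btla, which inhibits lymphocytes on binding the TNF receptor HVEM and is carried by B cells as well as T cells, was at 8.33, 7.35, 8.68 and 6.79 on arrays 1 to 4. Arrays 1 and 3 were the high ones and arrays 2 and 4 the low ones, and the range between arrays came to a fold of 3.71. Its SD was greater than that of 99.4% of genes above background. It was called with an adjusted p of 0.0143, and of 0.0132 to 0.0204 when 1 array was left out.

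Lag3, whose product binds MHC class II and restrains T cells, was at 6.99, 6.99, 6.88 and 6.99, the smallest SD among the members. Its adjusted p was 0.0226, although every array lay under the highest gene of other organs. Havcr2, the gene of TIM-3, was at 4.18, 4.08, 3.99 and 4.05, with 786 of the 1237 background genes at or above its mean and an adjusted p of 0.676. Detection was thus not shown for Havcr2, and a transcript that this probe set reports poorly cannot be told apart from an absent one.

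The receptors that share nectin-like ligands differed from each other in their calls. Cd96 was at 10.46, 10.35, 10.46 and 10.25 on arrays 1 to 4, and Cd226, also known as DNAM-1, at 9.53, 9.32, 9.42 and 9.16. On both genes arrays 1 and 3 were slightly above arrays 2 and 4, within a fold of 1.15 for Cd96 and 1.29 for Cd226. Tigit was at 6.06, 6.06, 5.81 and 5.97, with an adjusted p of 0.0756 and 50 background genes at or above its mean. On each array Tigit exceeded the 95th percentile of background. This looser criterion called 8 members and 54.4% of all named genes, and limma's moderated test against the same percentile called 8 members, Tigit among them, and 53.9%. An unadjusted detection p under 0.05 was met by 9 members, all but Havcr2, and by 57.2% of all named genes.

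**Figure D2:**
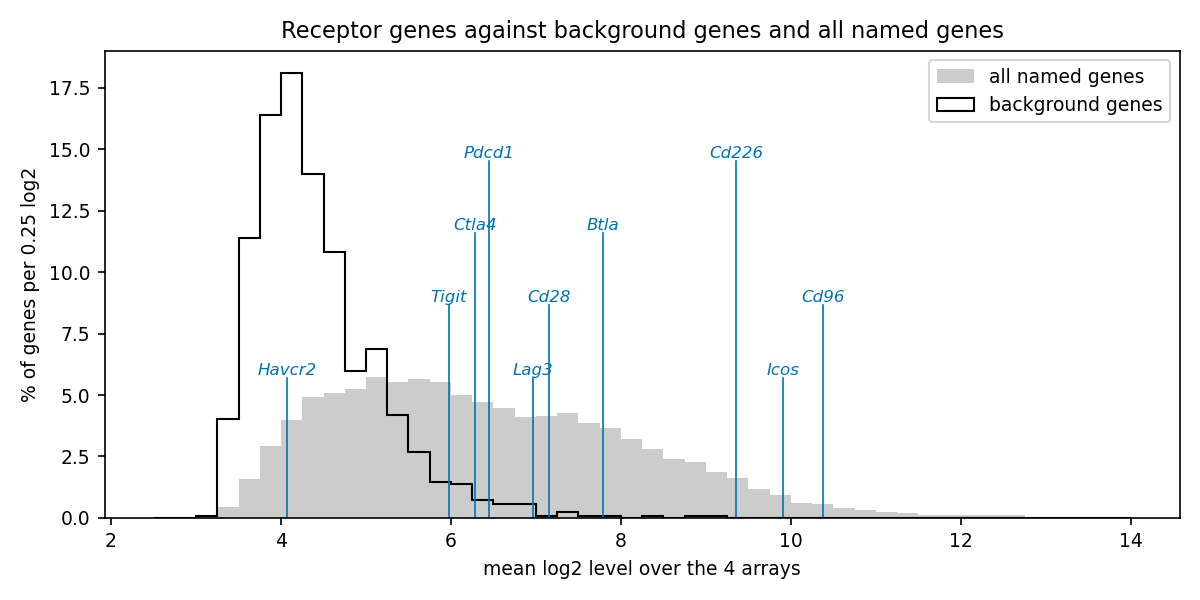
Percent of genes in each 0.25 log2 step of the mean level, for all 19938 named genes (grey) and the 1237 background genes (black outline), with a vertical line at the mean of each receptor gene (the height of a line carries no value). Cd226, Icos and Cd96 stand to the right of all background genes, and Havcr2 stands within their bulk.

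Spread between arrays also separated the receptors. The median SD of the 10 members, 7 of them called, was 0.236 log2 units. It was 0.168 for genes above background and 0.109 for all named genes, most of which were not called. For the smaller sets of arrays below, the reference is all named genes alone. Without array 4 the members' median was 0.127, closer to that of all named genes without it (0.1002). Without array 1, 2 or 3 the members' median was 0.157, 0.288 or 0.223, above the 0.103, 0.1002 or 0.0981 of all named genes. On arrays 2 and 4 alone the medians were 0.0673 for the members and 0.0777 for all named genes. This pair was chosen after the data were seen, and both arrays were low for Btla. Each SD there rests on 2 arrays, so the lower median of the members cannot show that they vary no more than other genes. The SDs of Btla, Pdcd1, Icos and Cd28 exceeded those of 99.4%, 97.2%, 93.5% and 84.0% of genes above background. Those of Cd226 and Cd96 exceeded 46.3% and 24.3%, and that of Lag3 was lower still. The lowest array was array 4 for Icos, Btla, Cd96 and Cd226, array 3 for Cd28, Ctla4, Lag3, Tigit and Havcr2, and array 1 for Pdcd1. Among genes above background, array 3 was the lowest for 27.3% and array 4 for 27.1%. Cd96 and Tigit each had an identical value on 1 pair of arrays, which the median polish of RMA can give, and their SDs can be too small.

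**Figure D3:**
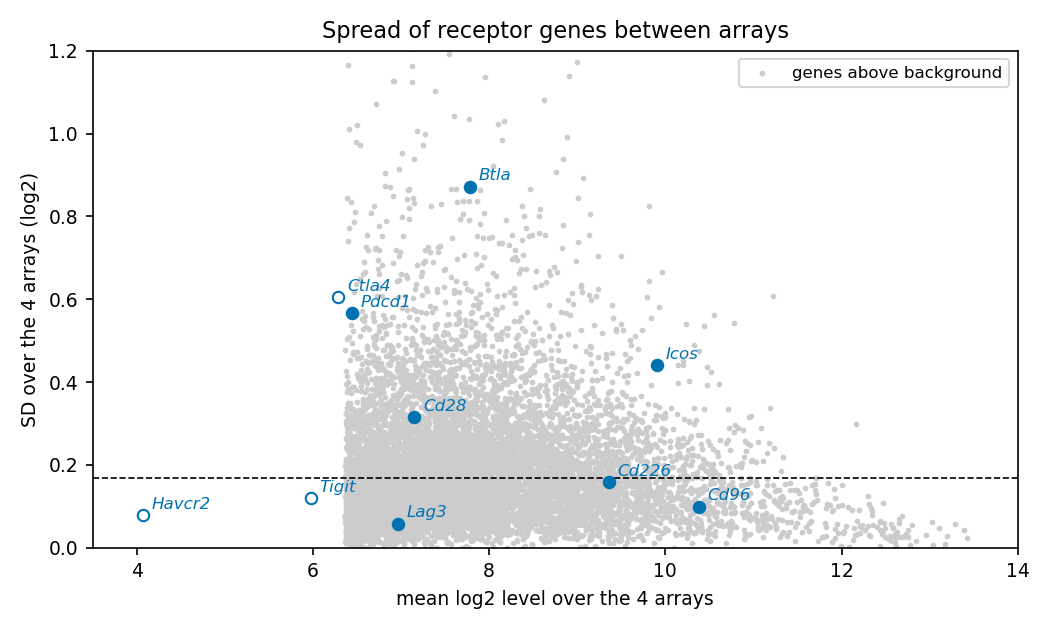
SD over the 4 arrays against the mean log2 level of each gene above background (grey), with the receptor genes in blue, filled where called and open where not; the dashed line is the median SD of genes above background (0.168), and 18 genes with an SD over 1.2 lie beyond the axis. Btla, Pdcd1 and Icos lie well above the line, while Cd96, Cd226 and Lag3 lie below it.

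Genes of other lymphocytes were also above background on these arrays. In sorted bulk samples, fewer cells of a type and less RNA per cell cannot be told apart. Of 13 measured B cell markers, 12 were called, or 92.3%, against 46.2% of all named genes. The mean of the B cell markers was 8.58, 7.69, 8.78 and 7.53 on arrays 1 to 4. The mean of these markers and Btla thus ordered the arrays alike. Cd79b, which with Cd79a signals for the B cell receptor, was at 10.21, 9.58, 10.38 and 9.19. Cd79a was at 9.59, 8.33, 9.43 and 8.03. Pou2af1, a B cell marker whose mean lay between theirs, was at 8.98, 8.85, 9.62 and 9.31, lower on array 1 than on array 4. On arrays 1 and 3, 11 of the 13 exceeded their values of arrays 2 and 4, an order shown by 16.4% of genes above background. Fcrla, at 5.96 ± 0.38, was the B cell marker not called. The 3 genes whose pattern was most like that of Btla, by the root mean square difference of centred levels over the 4 arrays among the 9196 genes above background that are not members, were Cr2 (0.0432), Pax5 (0.107) and Fcmr (0.122). Cr2 encodes complement receptor 2, Pax5 a factor of B cell identity and Fcmr a receptor for IgM, and the first 2 belong to the B cell list. Pou2af1 of the same list ranked 2691 by this difference. Arrays 2 and 4, a pair chosen after the data were seen, had the lowest B cell list means, 7.69 and 7.53. Cd79b was still at 9.58 and 9.19 on them. On this pair alone Btla was called at a mean of 7.07 and an adjusted p of 0.0254. Its levels there, 7.35 and 6.79, lay under the highest gene of other organs (7.42). The part of B cells in the level of Btla was not tested.

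Of 13 measured T cell markers, 11 were called, or 84.6%, against 46.2% of all named genes. On every array 4 exceeded 7.42, as did 24.1% of all named genes. Trac, Trbc1 and Trbc2 of that list, constant regions of T cell receptor chains, were not analysed. The list means of the T cell markers were 7.40, 7.40, 7.72 and 7.496. Lat, an adaptor of the T cell receptor, had the highest mean of the list at 10.03 ± 0.12. Cd3e, a chain of the T cell receptor complex, was at 9.07, 8.60, 9.07 and 8.89, and Cd3g at 8.59, 8.47, 9.51 and 8.52. The markers not called were Themis, at 6.15 ± 0.30, and Trat1, at 4.27 ± 0.30. Array 3, with the highest T cell list mean, had the highest Pdcd1 and the lowest Cd28 and Ctla4 value. Of 9 regulatory T cell markers 7 were called, or 77.8%, with list means between 7.68 and 7.82. Foxp3, the defining factor of regulatory T cells, was at 6.68, 6.51, 6.64 and 6.45, under the highest gene of other organs. The highest means of that list were those of Il2ra at 11.46 ± 0.09, Capg at 9.43 ± 0.09 and Ikzf2 at 8.85 ± 0.21, none of which is particular to T cells. The part of T cells in the levels of Icos, Cd28, Ctla4, Pdcd1, Lag3 and Tigit was not tested.

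NK cells and ILC1 are known for Cd96, Cd226 and Tigit. Of 14 of their markers 7 were called, with list means of 6.30, 6.54, 6.33 and 6.10. Arrays 1 and 3 both exceeded arrays 2 and 4 for Cd96 and Cd226. The same order was shown by 3 of these 14 markers, Klrk1 among them, and by 16.4% of genes above background. The list mean was highest on array 2. Ccl5, the marker with the highest mean, was at 8.96, 10.31, 10.69 and 9.27, and Klrk1 was at 8.89, 7.67, 8.72 and 7.86. Xcl1 was at 8.06 ± 0.58 and Klrb1c at 8.02 ± 0.05. Gzma, at 6.11 ± 1.23, was not called. Of 8 ILC2 markers 4 were called, led by Gata3 at 9.72 ± 0.12, which ILC3 share. Of 12 dendritic cell markers 5 were called, led by Batf3 at 8.94 ± 0.19, and of 10 monocyte and macrophage markers 3, led by Lyz2 at 8.22 ± 0.73. The called shares were 50% for the NK and ILC1 list, 50% for ILC2, 41.7% for dendritic cells and 30% for monocytes and macrophages, near or under the 46.2% of all named genes. The part of these cells in the receptor levels was not tested. All 10 measured genes of ILC3 and the sort gate were called, among them Il7r, which encodes CD127, at 12.56 ± 0.06 and Thy1, which encodes CD90, at 11.36 ± 0.15, and their list means lay between 10.54 and 10.67.

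**Figure D4:**
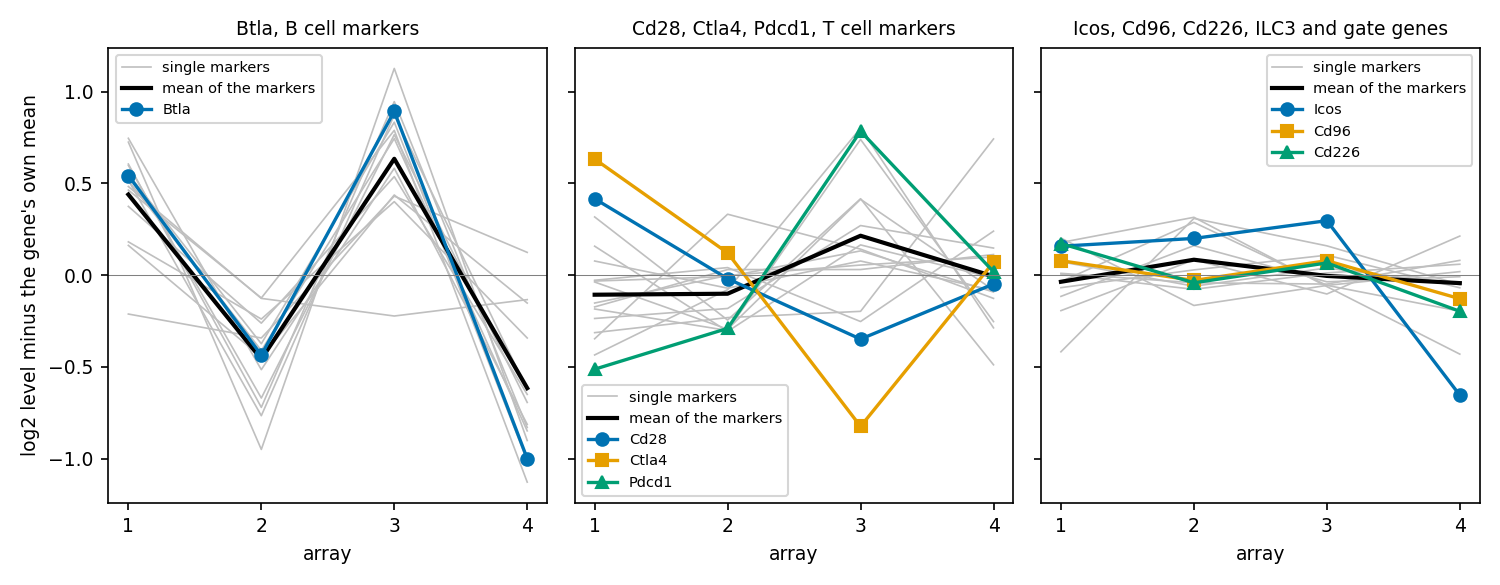
Log2 level minus the gene's own mean on arrays 1 to 4 for receptor genes (coloured), single marker genes (grey) and the mean of the marker list (black); lines join values of 1 gene or list, and arrays have no order. Btla follows the mean of the B cell markers with high values on arrays 1 and 3, though not every single marker has this order. Pdcd1 and Ctla4 part on array 3, and Icos drops on array 4 by more than the ILC3 and gate genes do.

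Of 18 genes for ligands of these receptors, 8 were called, or 44.4%, close to the share of all named genes. H2-Ab1, an MHC class II chain and thus a ligand gene of LAG-3, was at 11.71 ± 0.13, Icosl, the ligand of ICOS, at 9.27 ± 0.14 and Lgals9, which encodes galectin-9, at 8.99 ± 0.30. Tnfrsf14, which encodes the BTLA ligand HVEM, was at 7.89 ± 0.15. The PD-1 ligand genes Cd274 and Pdcd1lg2 were at 8.22 ± 0.33 and 7.28 ± 0.11. On arrays 1 to 4 Cd274 was at 8.38, 8.38, 7.72 and 8.39, lowest on array 3 where Pdcd1 was highest. Of 5 genes for the poliovirus receptor and nectins, the ligand family of CD96, CD226 and TIGIT, 0 were called by the detection test, 1 (Nectin4) by limma and the same 1 at an unadjusted detection p under 0.05. Among them Pvr was at 5.80 ± 0.23 and Nectin4 at 6.01 ± 0.06. Cd80, a ligand of CD28 and CTLA-4, was at 5.73 ± 0.37 and not called. Ligands on other cells of the node were not measured.

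Signalling genes known to act under these receptors were called in 25 of 25 cases, against 46.2% of all named genes. Their median mean level was 8.46, against 6.16 for all named genes. Lcp2, the adaptor SLP-76, was at 10.65 ± 0.09, and Pik3cd and Pik3r1, which encode the catalytic and regulatory chains of phosphatidylinositol 3-kinase that ICOS and CD28 recruit, were at 9.32 ± 0.13 and 9.31 ± 0.21. Ppp2ca, the phosphatase that binds CTLA-4 and CD28 tails, was at 10.02 ± 0.08, Inpp5d, the inositol phosphatase SHIP-1, at 9.16 ± 0.21 and Cblb, a ubiquitin ligase that restrains costimulation, at 9.40 ± 0.34. Most of these serve many receptors. Of 9 genes that handle CTLA-4 and ICOS, 8 were called, or 88.9%, against the same 46.2% of all named genes. Among the called ones were Rc3h1 and Rc3h2, the Roquin proteins that degrade Icos mRNA, at 9.26 ± 0.10 and 9.18 ± 0.07. Ap2m1, of the clathrin adaptor that takes up CTLA-4, was also called, at 9.14 ± 0.07.

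Other receptors of the same functions were called more often than not. Of 15 further coinhibitory receptors 10 were called, and of 15 further costimulatory receptors also 10, or 66.7% each, against 46.2% of all named genes. Lilrb4a, an inhibitory receptor of leukocytes, was at 10.05 ± 0.26, Pecam1 at 8.44 ± 0.18 and Cd160, which also binds HVEM, at 8.37 ± 0.26. Cd72 at 9.16 ± 0.60 and Cd22 at 8.19 ± 0.79 are B cell receptors, and Cd22 is also a member of the B cell list. Cd5 was at 7.65 ± 0.20, while Cd300a at 5.72 ± 0.11 and Cd101 at 5.66 ± 0.41 were not called. Klrc1, an NK receptor chain, was at 5.29, 7.66, 5.32 and 4.07 and was not called, with array 2 as the high one. Among costimulatory receptors Ly9 was at 9.86 ± 0.07, Cd84 at 9.50 ± 0.23, Tnfrsf25 at 8.96 ± 0.15 and Cd2 at 8.57 ± 0.53. Cd27 and Tnfrsf4, which encodes OX40, were at 7.79 ± 0.28 and 7.64 ± 0.32, and Slamf1 at 5.49 ± 0.27 and Cd40lg at 4.97 ± 0.28 were not called.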

How the data were processed

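Total RNA of 4 sorted samples was measured on 1 array each. The authors deposited 1 log2 level for each probe set and array, made with RMA per the submitters' processing notes. RMA removes background, equalises the arrays and combines the probes of a set, and its version is not given here. Of 35556 probe sets, the platform annotation in GEO gave 1 symbol for 21789, several for 1621 and listed none for 12146, and only the first kind was named. Of the 21789 named probe sets, 21698 had an Entrez identifier found in the RefSeq gene table of GRCm38.p6 and took the symbol given there. For 999 of 19938 genes with several probe sets, that with the highest mean was used.

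Detection was calculated with Python 3.11.15 across all genes, as defined in the report, and limma 3.58.1 was run as an alternative on the level minus the 95th percentile of background of each array, one-sided. Both were checked on simulated data. A marker list was described by its counts and means. Alternatives changed the background, threshold, probe set, scaling and arrays. The members and lists were chosen with earlier results of these data known. Of the list symbols, 18 are not analysed here. The genes named were all members and, by mean level, genes among the 4 highest called and 2 highest uncalled of a marker list (6 and 3 of other lists), with T cell and regulatory T cell markers free to be named, and the 3 genes most like the member with the largest SD. The number of arrays limits precision.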

Additional observations from a re-analysis of the deposited data

Results flagged for a closer look

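Among 71 of the genes named or examined here, 11 had 1 array far from the other 3 by Dixon's criterion for 4 values. For independent normal values chance gives about 1 such group in 20. The share over all named genes is not given here, so no excess can be read from the 11. Pecam1 had identical values on all arrays but array 3, which by itself meets the criterion. Cd274 and Ppp2ca each had 1 identical pair, which makes it easier to meet. Of the receptors, Icos was at 9.25 on array 4, against 10.07 to 10.20 on the others, and Lag3 was at 6.88 on array 3, against 6.99 on each of the others. On array 3, Cd274 was low at 7.72, against 8.38 to 8.39, Ckm was low at 7.12, against 7.40 to 7.42, Pecam1 was low at 8.17, against 8.53 on each of the others, Tnfrsf25 was low at 8.74, against 9.02 to 9.05, and Cd3g was high at 9.51, against 8.47 to 8.59. Nectin4 was at 5.91 on array 4, against 6.03 to 6.05. Ppp2ca was at 9.90 on array 1, against 10.05 to 10.06. Ikzf2 was at 9.15 on array 1, against 8.73 to 8.79. Cd27 was at 7.37 on array 2, against 7.90 to 7.95.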

How the results depend on the processing

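The count of 7 receptor genes above background stayed between 6 and 9 under every alternative except an adjusted p under 0.01, which called 0 receptor genes and 0 of all named genes with 4 arrays, because the smallest adjusted p that the detection test could give was 0.0108; limma called 8 receptor genes, and an unadjusted p under 0.05 was met by 9. All named genes above background numbered 8600 to 11395 under the other alternatives. Cd96, Icos, Cd226, Btla, Cd28 and Lag3 kept their calls in 15 of 16 alternatives each, that threshold being the exception, and Havcr2 was called in 0 of the 15 that tested it. Pdcd1 was not called with olfactory receptor genes alone as background (adjusted p = 0.054), without array 3, or on arrays 2 and 4 alone (adjusted p = 0.0528), a choice made after seeing the data. Ctla4 was called without array 3, at an unadjusted p under 0.05 and where genes with a mean above the median alone were tested (adjusted p = 0.0261). The 3 genes above all genes of other organs were 3 under every alternative run. The median SD of the members was 0.127 without array 4 and 0.288 without array 2, and 0.0673 on arrays 2 and 4 alone. The cause was not tested. Scanner files were not used here, so background correction could not be varied, and choices among probe sets could not move the members, which have 1 each. No paired analysis was possible because the samples form 1 group.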
